A study of Mus musculus
Mus spretus with 18 samples.

Results

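The genes of the ATP-binding cassette (ABC) transporter family were described across tissues, parental alleles and a splicing inhibitor. Members were the autosomal genes whose symbol starts with Abca to Abcg followed by a digit, 48 of the 38924 genes in the expression table. Of the 48 members, 16 belonged to subfamily A, 9 to B, 10 to C, 3 to D, 1 to E, 3 to F and 6 to G. At least 1 alternative splicing event was listed for 46 of them. They held 496 of the 97090 autosomal skipped exon (SE) events in the tissue tables, 170 of the 65856 in the fibroblast table, and 13 of the 2158 retained introns in fibroblasts.

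Stranded paired-end RNA-seq of mRNA was made from F1 hybrids of a C57BL/6J mother and a SPRET/EiJ father, an inbred wild-derived Mus spretus strain, so that every library carried both parental alleles in the same nuclei. Cerebral cortex, heart, kidney, lung, spleen and liver came from female F1 mice of 8 weeks, with 2 animals as replicates. The embryonic stem cells (ESC) were 2 independent clones kept in 2i and LIF. The fibroblasts were 1 line derived from the same F1 hybrid, treated for 4 h with DMSO or with 0.1 μM pladienolide B (PladB), which inhibits the SF3B complex of the U2 snRNP, with 2 libraries each. All groups shared the hybrid genotype, and the fibroblasts were cultured cells of a single line, so that p-values between their libraries measure a spread that may be technical. The 2 liver libraries came from earlier work on the same animals, so that this difference and tissue cannot be told apart. Heart, kidney and cortex were sequenced with longer reads than spleen, lung and ESC. The authors trimmed the longer reads to equal length, and sequenced length and tissue cannot be told apart either.

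Junction reads summed over the listed SE events ranged from 46558287 to 129496306 per library in the tissues and from 129067054 to 151755602 in the fibroblasts. A read counts once for each event that uses its junction, and the lists of events differ. These sums therefore do not compare depth between tissues and fibroblasts. In such sums 48.3% to 53.8% of the allelic junction reads came from C57BL/6J. Replicates correlated at 0.963 (ESC) to 0.996 (DMSO) on log2(TPM + 0.1), where TPM is a level corrected for transcript length and library size. In each organ and in ESC the markers of the labelled tissue summed higher than in any other tissue. The cardiomyocyte markers Myh6, Tnnt2 and Actc1 also summed to 949 and 760 TPM in the lung libraries, against 47363 and 47730 TPM in heart. In fibroblasts Col1a1 and Col1a2 averaged 1065 and 1086 TPM under DMSO, and Dcn 32.8 TPM, the last below the 649 TPM of heart. The smooth muscle marker Acta2 averaged 3368 TPM there, and the 3 endothelial markers summed to at most 0.0702 TPM.

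ABC proteins bind and hydrolyse ATP through a conserved nucleotide-binding domain, and most couple this to moving a lipid, sterol, bile salt, drug conjugate or peptide across a membrane. Full transporters carry paired membrane and nucleotide-binding domains in a single chain, whereas others, such as those of subfamilies D and G, dimerise. The sulfonylurea receptors Abcc8 and Abcc9 are regulators of potassium channels rather than pumps, and the proteins of subfamilies E and F lack membrane domains and act with ribosomes. No sequence is shown, since none was used here.

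The family covered the whole range of expression and differed from tissue to tissue. Abcb11 reached a mean of 404 TPM in liver, Abcd3 287 TPM in liver, Abcg2 202 TPM in kidney and Abce1 194 TPM in ESC. Mean TPM was at least 1 in all 7 tissues for 19 members. For 5 members (Abca6, Abca13, Abcb11, Abcg5 and Abcg8) the highest tissue exceeded the next by more than 10-fold. Liver held the highest mean for 12 members, ESC for 10, cortex and kidney for 8 each, heart for 5, lung for 3 and spleen for 2. The members Abca14, Abca15, Abca16 and Abcb5 were too low to test, with means of at most 1.24 TPM in any tissue.

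**Figure D1:**
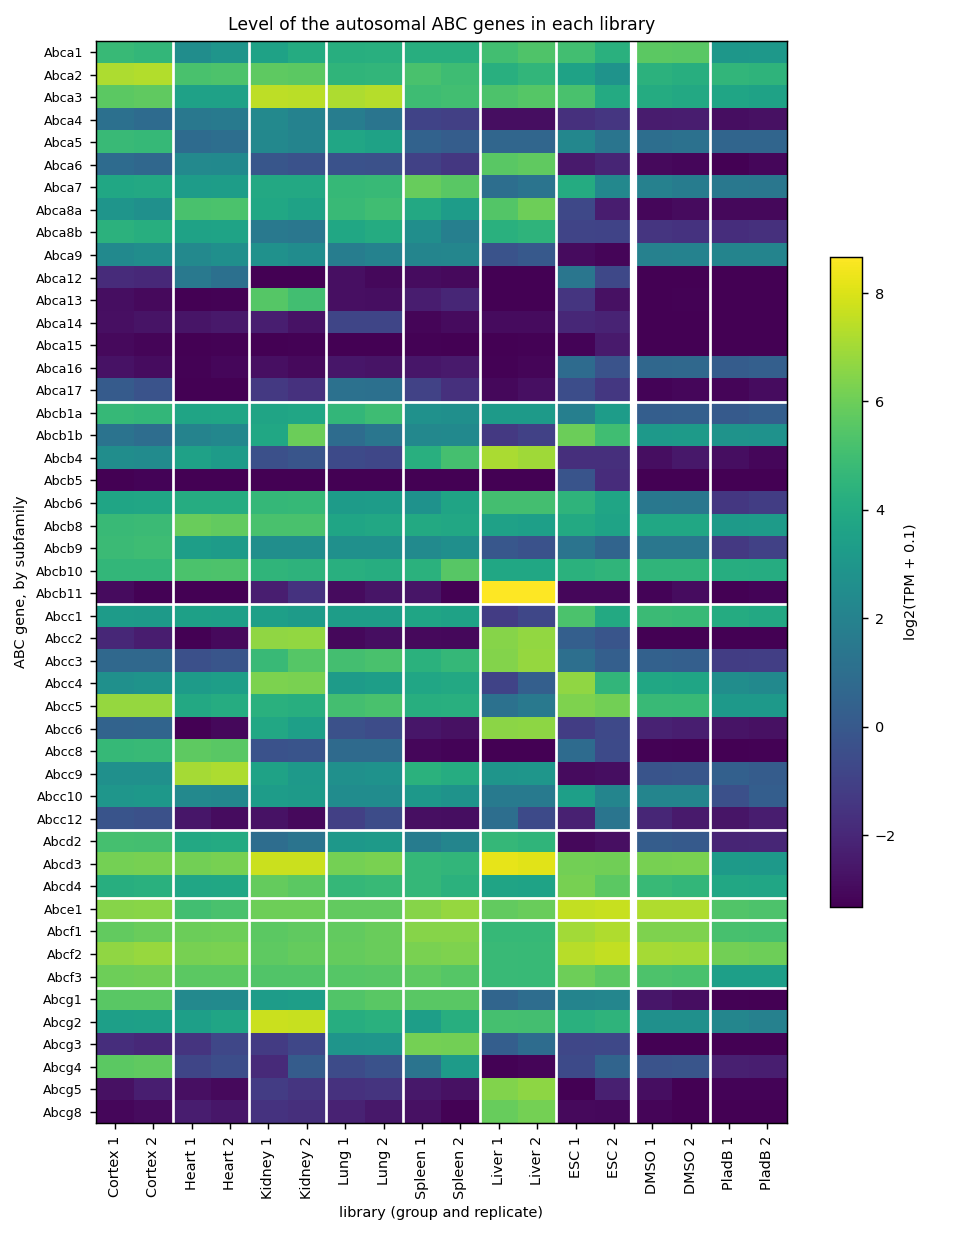
Level of the 48 autosomal ABC genes (rows, by subfamily from A at the top to G at the bottom, separated by white lines) in the 18 libraries (columns, 2 per group), as log2(TPM + 0.1) in colour. Abcb11, Abcg5 and Abcg8 are bright in the liver columns alone, Abca13 in the kidney columns alone, and the rows of subfamilies E and F are bright in all tissue columns.

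All 44 members that passed the minimum of a mean of 0.5 TPM differed among the 7 tissues at a false discovery rate (FDR) of 0.05, which says little about the family, because 99.4% of the 20826 genes tested did so. Each tissue was therefore set against the mean of the other 6, with a call at an FDR of 0.05 and a log2 difference of at least 1 in size. This gave 80 higher and 94 lower calls over all pairs of gene and tissue, and 42 of the 44 members had a call in some tissue. Of all genes, 8.21% (liver) to 35.8% (ESC) were called higher in a tissue, and 14.9% (lung) to 68.3% (liver) lower. The share of all genes with a call in some tissue was not counted, so that these totals are not read as a trait of the family. The log2 differences of all genes were not centred at 0, with medians from -1.56 in liver to 0.38 in cortex, so that counts are also given after quantile normalization of the libraries. Shares of all genes were counted only before this normalization. Whether the balance of the members turned more or less than that of all genes was not tested.

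Liver was the tissue with the most members higher, 15 of 44, against 8.21% of all genes, and 20 members were lower, against 68.3% of all genes. After quantile normalization the counts were 18 higher and 12 lower. The balance of higher and lower thus turned with the scaling. Abcb11, the bile salt export pump of the hepatocyte canalicular membrane, had 403 and 405 TPM in the liver libraries and a mean of at most 0.171 TPM in any other tissue (log2 difference 11.53 ± 0.22, SE, FDR = 7.66e-11). Abcg5 and Abcg8, whose products form a heterodimer that exports plant sterols and cholesterol into bile, had 84.6 and 97.7 TPM and 58.8 and 70.4 TPM. Their highest means elsewhere were 0.301 and 0.218 TPM, both in kidney, and their log2 differences were 8.82 ± 0.24 and 8.61 ± 0.17 (FDR = 5.43e-10 and 8.18e-11). No liver library overlapped a library of another tissue for these 3 genes.

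Abcg5 and Abcg8 lie next to each other on chromosome 17 (84658174 to 84683011 and 84676302 to 84700333, GRCm38, RefSeq), and their annotated spans overlap. Fragments were counted by strand, so that sharing in the overlap would need both genes to lie on the same strand. Abcc2, which exports glutathione and glucuronide conjugates across apical membranes, had 88.7 and 105 TPM in liver and 102 and 104 TPM in kidney. These ranges overlapped, and both tissues were called higher (log2 differences 7.36 ± 0.17 and 7.48 ± 0.17, FDR = 2.20e-10 and 4.40e-10). Abcc8 was listed at 0 in both liver libraries. Abcc1, an exporter of glutathione conjugates, was lower in liver with 0.331 and 0.491 TPM against means of 9.25 to 27.0 TPM in the other 6 tissues (log2 difference -4.60 ± 0.25, FDR = 5.23e-08). After quantile normalization its difference was -2.51, and relative to the median of all genes in liver it was -3.03.

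A list of 18 partners and regulators of ABC transporters held channel pores, peptide loading, peroxisomal chaperones, apolipoproteins and nuclear receptors. Of the 18, 8 were higher in liver and 4 lower, against 8.21% and 68.3% of all genes. The higher ones included Nr1h4, the bile acid receptor FXR, with 84.5 TPM in liver and 89.99 TPM in kidney (log2 differences 6.68 ± 0.14 and 6.79 ± 0.14, FDR = 1.28e-10 and 2.42e-10). Apoa1, the acceptor of cholesterol exported by Abca1, had 10415 TPM in liver (log2 difference 13.67 ± 0.53, FDR = 4.37e-09).

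In kidney 12 members were higher and 8 lower, against 16.8% and 18.5% of all genes, and 12 and 10 after quantile normalization. Abca13, a very large member of subfamily A, had 45.7 and 33.0 TPM in kidney and a mean of at most 0.150 TPM in any other tissue (log2 difference 8.08 ± 0.27, FDR = 5.79e-09). Abcg2, which exports urate and many drugs, had 206 and 199 TPM against means of 10.97 to 34.6 TPM elsewhere (3.57 ± 0.17, FDR = 6.00e-08). Abcc6, known for its link to ectopic mineralisation, had 14.3 and 10.8 TPM (3.67 ± 0.17, FDR = 6.32e-08), below the 97.0 TPM of liver. Of these, Abca13 and Abcg2 had kidney as their highest tissue without overlap of any library.

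Kidney was low in Abcb4, the phosphatidylcholine floppase of bile, with 0.668 and 0.792 TPM (log2 difference -2.81 ± 0.20, FDR = 1.13e-06), and in Abcg3 with 0.319 and 0.495 TPM (-1.99 ± 0.23, FDR = 3.62e-05). Of the 18 partners, 5 were higher and 1 lower, against 16.8% and 18.5% of all genes. The P-glycoprotein gene Abcb1b was uneven between the kidney libraries, with 14.2 and 62.9 TPM. It is close in sequence to Abcb1a on chromosome 5, 49571 bases away, and how reads shared between them were divided was not tested.

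In heart 12 members were higher and 16 lower, against 11.9% and 37.7% of all genes, and 14 and 10 after quantile normalization, so that the balance turned. The leading pair were the sulfonylurea receptors, the regulatory subunits of ATP-sensitive potassium channels. Abcc9 had 134 and 146 TPM in heart against means of 0.0308 to 18.5 TPM elsewhere (4.96 ± 0.11, FDR = 8.29e-10). Abcc8 had 51.8 and 48.8 TPM in heart (5.84 ± 0.29, FDR = 7.39e-08) and 26.3 and 27.2 TPM in cortex (4.78 ± 0.29, FDR = 1.45e-07). For both genes every heart library was above every library of another tissue.

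The channel pores that these receptors serve were also high in heart. Kcnj11 averaged 175 TPM in heart and 38.3 TPM in cortex (log2 differences 7.42 ± 0.53 and 4.87 ± 0.53, FDR = 8.62e-07 and 1.34e-05), and Kcnj8 averaged 65.7 TPM in heart (3.80 ± 0.12, FDR = 5.28e-09). They were the 2 of 18 partners called higher in heart, and 7 were lower, against 11.9% and 37.7% of all genes. Abca12 reached 2.78 and 2.05 TPM in heart (3.67 ± 0.39, FDR = 1.38e-05) and Abca8a 36.6 and 39.0 TPM (2.04 ± 0.34, FDR = 3.22e-04), the latter below the 54.1 TPM of liver. Abca8a and Abca8b are similar neighbours on chromosome 11, so that the split of reads between them is uncertain. Abcc6 and Abcc3 were lower in heart, at 0.0108 and 0.720 TPM on average (-4.30 ± 0.17 and -4.09 ± 0.21, FDR = 2.03e-08 and 1.08e-07).

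In cortex 13 members were higher and 9 lower, against 34.9% and 20.5% of all genes. After quantile normalization the counts were 9 and 14, so that the balance turned. The 4 leading genes kept log2 differences of 2.41 to 5.72 after quantile normalization. Abcg4, a sterol exporter of the nervous system, had 50.3 and 54.1 TPM against means of at most 5.84 TPM elsewhere (6.20 ± 0.55, FDR = 2.81e-06). Abca5 had 27.6 and 26.3 TPM (3.16 ± 0.19, FDR = 1.52e-07). Abcd2, which imports very long-chain fatty acids into peroxisomes, had 34.7 and 33.9 TPM (3.14 ± 0.13, FDR = 1.09e-08). Both cortex libraries were above all other tissue libraries for Abcg4, Abca5 and Abcd2. Abcg3 and Abcc3 were the lowest relative to the other tissues, at 0.179 and 1.55 TPM (-2.98 ± 0.23 and -2.91 ± 0.21, FDR = 8.48e-07 and 6.59e-07). Of the 18 partners, 2 were higher and 9 lower, against 34.9% and 20.5% of all genes.

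In spleen 8 members were higher and 13 lower, against 27.0% and 22.3% of all genes, and 7 and 18 after quantile normalization. Abcg3, a rodent gene of subfamily G, had 70.8 and 68.8 TPM in spleen, 7.45 and 7.86 TPM in lung, and a mean of at most 1.46 TPM in any other tissue. The log2 differences were 6.33 ± 0.23 in spleen and 2.62 ± 0.23 in lung (FDR = 1.19e-08 and 4.20e-06). Spleen and lung were thus well apart from each other and from the rest. The B cell marker Cd79a had 1511 and 907 TPM in spleen, 30.4 and 15.9 TPM in lung and at most 10.3 TPM in any other tissue library, and the T cell marker Cd3e had 138 and 103 TPM in spleen. Their part in the Abcg3 levels was not tested.

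Abca7, linked to lipid handling and phagocytosis, had 58.0 and 47.7 TPM in spleen (2.36 ± 0.32, FDR = 8.27e-05). Abcb4 had 18.7 and 34.9 TPM in spleen (2.97 ± 0.20, FDR = 4.54e-07). The spleen libraries also differed in the erythroid marker Alas2, with 52.2 and 144 TPM, and the part of this in Abcb4 was not tested. Abcc8 and Abcc2 were lower in spleen, at 0.0124 and 0.0202 TPM (-4.44 ± 0.29 and -3.90 ± 0.17, FDR = 4.12e-07 and 3.79e-08). Of the 18 partners, 5 were higher and 6 lower, against 27.0% and 22.3% of all genes. Among the higher ones were the peptide transporter genes Tap1 and Tap2 (3.79 ± 0.39 and 2.95 ± 0.44, FDR = 9.56e-06 and 1.47e-04).

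Abcg1, which exports cholesterol to high-density lipoprotein, was at nearly the same level in 3 tissues. Cortex averaged 48.1 TPM, spleen had 47.5 and 47.5 TPM, and lung 42.9 and 47.7 TPM, against means of 1.64 to 10.1 TPM elsewhere. It was called higher in spleen (2.28 ± 0.10, FDR = 3.57e-08), lung (2.20 ± 0.10, FDR = 5.39e-08) and, named after its values were seen, cortex (2.30 ± 0.10, FDR = 1.24e-08). The macrophage markers Csf1r and Cd68 summed to 340 and 349 TPM in spleen, 124 and 143 TPM in lung and 65.1 and 67.1 TPM in cortex. They also summed to 142 and 36.5 TPM in the ESC clones and 56.8 and 56.7 TPM in kidney, where Abcg1 was not called higher. In heart the sums were 35.4 and 42.0 TPM and in liver 21.7 and 31.9 TPM. The part of macrophages in the Abcg1 levels was not tested. In bulk tissue, fewer cells of a type and less RNA per cell cannot be told apart.

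In lung 11 members were higher and 9 lower, against 26.4% and 14.9% of all genes, and 9 and 13 after quantile normalization, so that the balance turned here too. Beside Abcg3 and Abcg1, the leading genes were Abca17 with 2.12 and 2.07 TPM (2.81 ± 0.24, FDR = 3.88e-06) and Abcc3 with 33.9 and 37.7 TPM (2.27 ± 0.21, FDR = 7.91e-06). Abca3, the surfactant phospholipid transporter of type II cells, did not rank among them. It was named after its values were seen, and had 148 and 162 TPM in lung and 174 and 174 TPM in kidney (1.99 ± 0.22 and 2.19 ± 0.22, FDR = 2.31e-05 and 1.48e-05). The type II markers Sftpc, Sftpb and Sftpa1 summed to at most 1.20 TPM in the kidney libraries. The annotated spans of Abca17 and Abca3 overlap at one end on chromosome 17. Abcc2 and Abcb4 were lower in lung (-3.79 ± 0.17 and -3.29 ± 0.20, FDR = 5.40e-08 and 3.07e-07). Of the 18 partners, 6 were higher and 3 lower, against 26.4% and 14.9% of all genes.

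In ESC 9 members were higher and 19 lower, against 35.8% and 25.4% of all genes, and 8 and 21 after quantile normalization. The ribosome-associated genes, named here after their values were seen, were among the higher ones. Abce1, a ribosome recycling factor, had 189 and 200 TPM in the clones (1.62 ± 0.08, FDR = 2.42e-08). Abcf1 had 130 and 151 TPM (1.37 ± 0.07, FDR = 4.22e-08) and Abcf2 166 and 187 TPM (1.52 ± 0.07, FDR = 1.48e-08). For these 3 genes both clones exceeded all 12 organ libraries. After quantile normalization Abcf1 was at 0.93, below the size limit. Abcf3 missed the size limit (0.34 ± 0.09, FDR = 0.00534).

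The genes that led by size in ESC were uneven between the clones. Abcb1b had 61.8 and 31.2 TPM (3.73 ± 0.44, FDR = 2.07e-05), Abcc4 101 and 23.8 TPM (2.41 ± 0.43, FDR = 4.52e-04) and Abcc1 38.3 and 15.6 TPM (1.95 ± 0.25, FDR = 4.61e-05). Abca12 had 2.50 and 0.510 TPM (2.52 ± 0.39, FDR = 1.62e-04), and with a pseudocount of 1 its log2 difference was 0.86, below the limit. All 4 were higher in clone 1, whereas the ESC markers Pou5f1, Nanog and Zfp42 summed to 2628 and 2669 TPM. Markers of other cell types also differed between the clones. Those of smooth muscle and pericytes summed to 26.3 TPM in clone 1 and 0.932 TPM in clone 2, those of kidney tubule to 19.4 and 2.58 TPM, those of macrophages to 142 and 36.5 TPM and those of fibroblasts to 23.5 and 5.17 TPM. Hepatocyte markers were higher in clone 2, with 4.69 and 19.1 TPM. The part of these differences in the ABC levels was not tested. For Abcb1b and Abcc4 the allelic shares of junction reads also differed between the clones, as given at the end. Abcc9 and Abcd2 were nearly silent in ESC, with 0.0308 and 0.0293 TPM (-6.78 ± 0.11 and -6.26 ± 0.13, FDR = 3.80e-11 and 1.51e-10). Of the 18 partners, 3 were higher and 8 lower, against 35.8% and 25.4% of all genes.

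**Figure D2:**
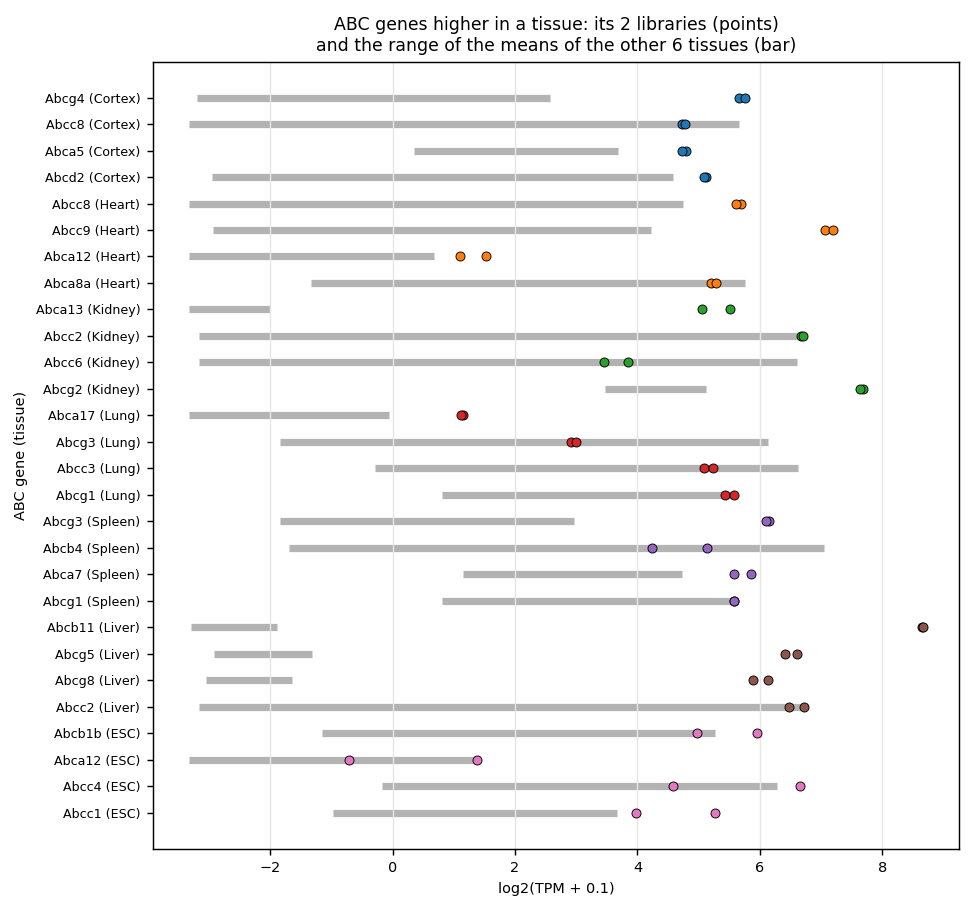
ABC genes with the largest log2 difference above the other tissues, up to 4 per tissue (rows), on a log2(TPM + 0.1) axis. Coloured points are the 2 libraries of the named tissue and the grey bar spans the lowest to the highest mean of the other 6 tissues. The points of Abcb11, Abcg5, Abcg8 and Abca13 lie far to the right of their bars, whereas those of Abcc2, Abcc6 and Abcc3 lie within or at the end of bars that reach another tissue with a high level.

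By subfamily, the 13 tested members of A had 7 higher and 3 lower in lung, against 26.4% and 14.9% of all genes. In cortex 6 were higher and 1 lower (34.9% and 20.5% of all genes) and in heart 6 and 5 (11.9% and 37.7%). In liver 4 were higher and 7 lower (8.21% and 68.3%), and in ESC 1 and 7 (35.8% and 25.4%). Of the 10 members of C, 4 were higher and 5 lower in liver, and 4 and 1 in kidney (16.8% and 18.5% of all genes). In G, 5 of 6 were lower in heart and 0 higher. In E and F no member was higher in an adult organ, 1 was lower in heart and 2 in liver. These counts describe few genes each and were not tested against the rest.

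Splicing of the family was measured by the percent spliced in (PSI), the share of the exon-including form after correction for the number of junction positions, given here from 0 to 1. An event was tested where every library of a tissue had at least 20 junction reads, in at least 2 tissues. This left 201 SE events with 182 exons in 33 member genes. Their switch score, the largest difference between the mean PSI of tissues, had a median of 0.00951, against 0.0145 over all 47963 events tested. PSI was above 0.9 in every tissue tested for 175 of the 201 (87.1%), against 77.7% of all events.

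Exon inclusion differed among tissues (FDR of 0.05 and a switch score of at least 0.1) for 8 member events in the 5 genes Abcc9, Abca3, Abcb4, Abcc1 and Abcd4. This is 3.98% of the member events, against 8.25% of all events. Of the 8 exons, 3 had a length divisible by 3 (37.5%), and among all member exons tested the share was 40.1%.

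The largest switch was a 176-bp exon of Abcc9 near the 3′ end of the gene (chr6:142593967-142594142, minus strand, mm10). Its PSI was 0.543 and 0.540 in heart, from 5060 and 4585 reads. In cortex, kidney, lung, spleen and liver no library exceeded 0.00959, from 70 to 359 reads each, so that heart stood alone and no other library came near it. The switch score was 0.538 (FDR = 1.46e-09). In ESC the event had no reads. Abcc9 is known to encode alternative forms of the receptor with different carboxy-terminal ends, SUR2A and SUR2B, and which of them this exon belongs to was not tested. The lung libraries, which held cardiomyocyte markers, had a PSI of 0.00850 and 0.00321.

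A second Abcc9 exon of 39 bp (chr6:142648027-142648065) was included less in kidney, with PSI of 0.6001 and 0.739, than in heart (0.980 and 0.967), spleen (0.964 and 0.954), liver (1.00 and 0.907) and cortex (0.942 and 0.799). Both kidney libraries were below all others (switch score 0.304, FDR = 8.69e-04). Without kidney replicate 1 the score was 0.235 and the FDR 0.0587.

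A 73-bp exon of Abca3 (chr17:24357919-24357991, plus strand) was measured in all 7 tissues and had the second largest switch score, 0.507 (FDR = 2.44e-05). PSI was 0.488 and 0.344 in cortex, 0.623 and 0.590 in heart, 0.592 and 0.665 in spleen, 0.869 and 0.863 in lung, 0.908 and 0.918 in kidney, and 0.909 and 0.936 in liver. The groups fell into a low cortex, an intermediate heart and spleen, which overlapped, and a high lung, kidney and liver. The ESC clones differed, at 0.573 and 0.884, and spanned the range from heart to kidney. Lung and kidney, the 2 tissues with the highest Abca3 level, were both among those with high inclusion. So was liver, whose Abca3 level was not called (log2 difference -0.19 ± 0.22, FDR = 0.411 by limma).

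A 58-bp exon of Abcb4 (chr5:8905975-8906032) had a PSI of 0.484 and 0.437 in cortex, from 53 and 52 reads, against 0.746 and 0.784 in spleen, 0.826 and 0.892 in heart and 0.902 and 0.924 in liver, where Abcb4 is most abundant. Spleen had more Abcb4 than heart (log2 differences 2.97 and 1.46) but lower inclusion. The score was 0.453 (FDR = 0.00378). A 198-bp exon of the same gene (chr5:8950660-8950857) was lowest in heart, at 0.859 and 0.887, and highest in liver, at 0.977 and 0.981 (score 0.106, FDR = 0.00283). Without heart replicate 1 its score was 0.0923, below the limit.

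Adjacent exons of Abcc1, of 168 and 184 bp (chr16:14447478-14447645 and chr16:14448400-14448583), were skipped more often in cortex. PSI of the former was 0.507 and 0.568 in cortex, 0.798 and 0.799 in spleen and 0.904 and 0.855 in ESC (score 0.342, FDR = 0.00449). PSI of the latter was 0.541 and 0.683 in cortex and 0.926 and 0.893 in ESC (score 0.297, FDR = 0.00667). The events share flanking exons and reads of the skipping junction, and are not independent. Without cortex replicate 1 both missed the threshold, with scores of 0.312 and 0.226 and FDRs of 0.0774 and 0.0834.

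In Abcd4, which serves lysosomal cobalamin export, a 92-bp exon (chr12:84605872-84605963) had a PSI of 0.508 and 0.724 in spleen, 0.890 and 0.737 in lung and 0.957 and 0.893 in ESC. Both spleen libraries were below both lung libraries, by a small margin at replicate 2, and the score was 0.309 (FDR = 0.0406). These values hold for 1 choice of flanking exons. With others, the same exon in spleen had a PSI of 0.930 and 1.00 from C57BL/6J reads. From SPRET/EiJ reads it was 0.833 and 0.894. The call was lost with the replicate number as a block (FDR = 0.0529), without the depth trend in the dispersions (FDR = 0.0708), and without cortex replicate 1 or 2, spleen replicate 1 or ESC replicate 1 (FDR = 0.0533, 0.0557, 0.341 and 0.0895), although the event itself had no reads in cortex.

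**Figure D3:**
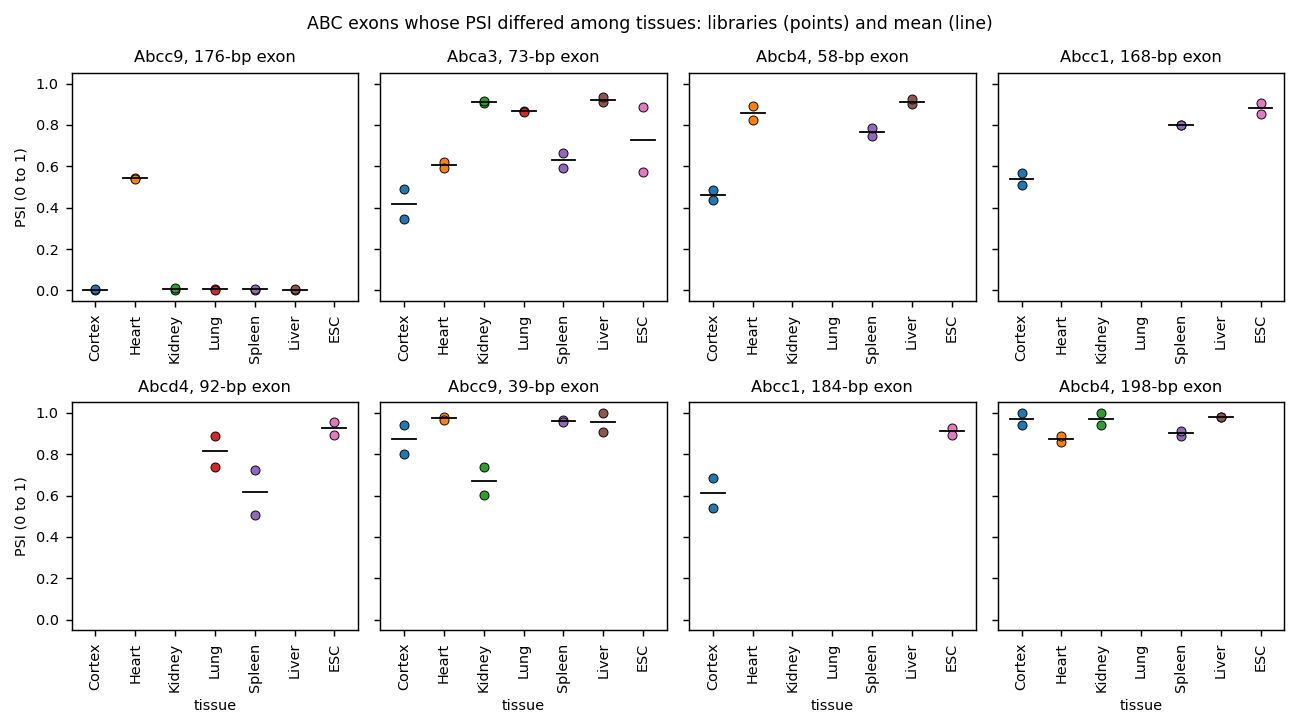
PSI (0 to 1) of the 8 ABC exons that differed among tissues, in order of the switch score. Points are libraries and lines their mean, and a tissue with no point had fewer than 20 reads in a library or was not listed for the event. The 176-bp exon of Abcc9 is near 0.54 in heart and near 0 elsewhere, while cortex is the lowest tissue for Abca3, for the 58-bp exon of Abcb4 and for both exons of Abcc1.

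Allelic PSI addressed cis-regulatory divergence, since both alleles share one cellular environment. Reads assigned to C57BL/6J or SPRET/EiJ were compared within a tissue, with a call at an FDR of 0.05 and an allelic difference (ΔPSI, C57BL/6J minus SPRET/EiJ) of at least 0.1 in size. Member events were called in 3 of the 7 tissues, 1 event each. They were 1 of 86 in cortex, 1 of 78 in heart and 1 of 112 in liver, against 1.69%, 1.60% and 0.757% of all events in these tissues. These calls do not use the pairing of the alleles within a library. With the library as a block 4 events were called, in heart, liver and kidney but not in cortex, as given below.

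The 176-bp exon of Abcc9 that was included in heart also differed between the alleles there. PSI of C57BL/6J was 0.678 and 0.653, from 2303 and 2150 reads, and PSI of SPRET/EiJ was 0.377 and 0.401, from 1373 and 1279 reads. The alleles did not overlap (ΔPSI 0.277 ± 0.017, SE, FDR = 0.00440). In kidney, lung and spleen, where the exon was skipped, PSI was at most 0.0133 on either allele and the alleles were not called.

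In liver, a 75-bp exon of Abcb11 (chr2:69330464-69330538, minus strand) was included in a minority of transcripts, with PSI of 0.170 and 0.145 from all reads. The C57BL/6J allele had 0.240 and 0.218 and the SPRET/EiJ allele 0.0619 and 0.0345, from 828 to 1911 reads per allele and library. The alleles were apart in both animals (ΔPSI 0.181 ± 0.017, FDR = 0.0284). The event had no reads in any other tissue.

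In cortex, a 148-bp exon of Abca8b (chr11:109973671-109973818) was fully included on C57BL/6J, at 1.00 and 1.00, and partly skipped on SPRET/EiJ, at 0.856 and 0.734 (ΔPSI 0.205 ± 0.061, FDR = 0.0433). With the library as a block the FDR was 0.0818, and without the depth trend it was 0.0642. In liver the difference was 0.0759 ± 0.0790 and was not called (FDR = 0.443). Whether cortex and liver differ was not tested.

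No member event was called in kidney, lung, spleen or ESC. These held 131, 69, 71 and 88 tested member events, of which 13, 5, 5 and 2 had an unadjusted p under 0.05 by the quasi-binomial F test. The share of all events with such a p was not counted, here or in the fibroblasts, so that no excess can be read from these counts. Calls among all events were 1.20%, 1.58%, 1.27% and 0.0226%. With the library as a block, which the design supports because both alleles of a library come from the same RNA, 1 event was called in kidney and a second in liver. The former was an exon of Abcd4 (chr12:84606100-84606308), with PSI of 0.878 and 0.884 on C57BL/6J and 1.00 and 0.993 on SPRET/EiJ (ΔPSI -0.116, FDR = 0.0318 with the block and 0.0579 without). The latter was an exon of Abcc6 (chr7:45979876-45980034), with 0.987 and 0.985 against 0.812 and 0.869 (ΔPSI 0.145, FDR = 0.0176 and 0.0805). In both genes the libraries of the alleles did not overlap. The Abcd4 exon was also lower on C57BL/6J elsewhere, without a call. Its ΔPSI was -0.4045 in spleen (FDR = 0.1855), -0.103 in cortex, -0.0612 in heart and -0.0685 under DMSO. In lung it was -0.174 and, with other flanking exons, -0.00980. Flanking exons were not matched between these groups, and whether the groups differ was not tested.

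**Figure D4:**
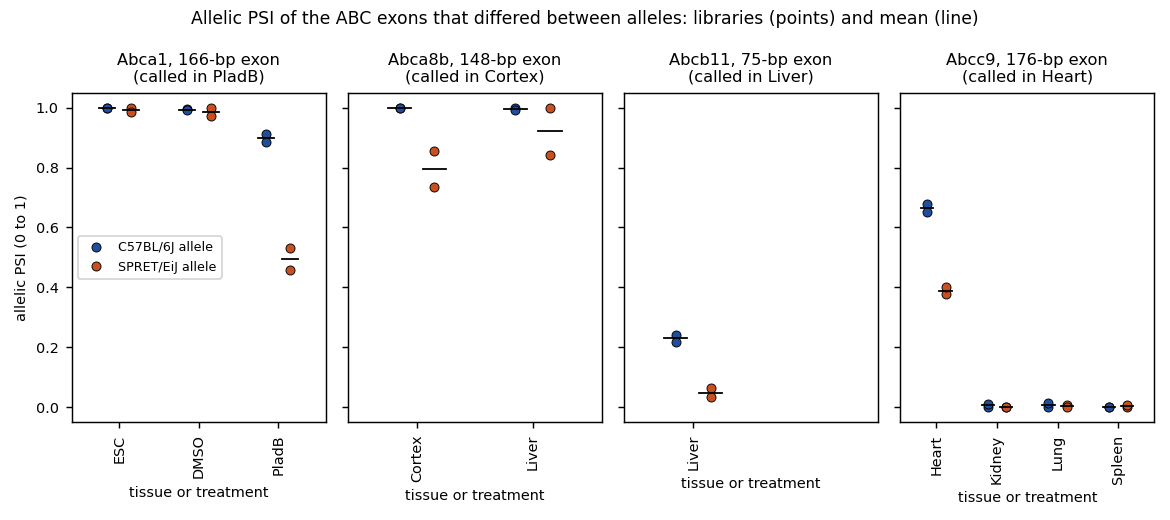
Allelic PSI (0 to 1) of the 4 ABC exons that differed between the alleles in a tissue or treatment, for every tissue or treatment with at least 20 reads per allele and library. Blue points are the C57BL/6J and orange points the SPRET/EiJ values of the libraries, and lines their mean. C57BL/6J lies above SPRET/EiJ in the called tissue or treatment of all 4 exons, whereas the alleles of Abca1 coincide near 1 under DMSO and those of Abcc9 near 0 outside heart.

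In the fibroblasts the question was how ABC transcripts respond when the splicing machinery is inhibited. Of the 27 members expressed enough to test, 18 were lower after PladB and 0 higher by limma at an FDR of 0.05 and a log2 difference of at least 0.5. Of all 14283 genes tested, 64.0% were lower and 9.07% higher. The median log2 difference was -0.88 for the members and -1.10 for all genes, and 12 of the 27 members were below the median of all genes. After quantile normalization the median of all genes moved to -0.04, and 10 members were lower and 12 higher. No share of all genes was counted on that scale. The sign was opposite on these scales for 12 of the 27 members and the same for 15, and 3 members called lower on the deposited scale were called higher after quantile normalization. These were Abcg2 (-0.64 and 0.94), Abcb8 (-0.61 and 0.87) and Abca5 (-0.51 and 0.78), named after their values were seen. Changes of the leading pair are given below relative to the median of all genes too.

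The 6 members with the largest fall were lower on both scales. Abcd3, a peroxisomal importer of branched-chain fatty acids and bile acid precursors, had 74.4 and 76.2 TPM under DMSO and 9.27 and 8.89 TPM under PladB. It fell by 3.04 on the log2 scale (SE 0.05, FDR = 4.41e-06), which was 1.94 below the median of all genes. Abca1, the exporter of cholesterol to apolipoprotein A-I, had 49.3 and 47.7 TPM and then 7.97 and 8.39 TPM (-2.55 ± 0.05, FDR = 4.43e-06, relative to the median -1.46). For both genes the treated libraries were far below the controls.

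The other 4 had lower levels. Abcb6 went from 2.70 and 2.59 to 0.281 and 0.345 TPM (-2.74 ± 0.16, FDR = 5.39e-05), and Abcb9, a lysosomal peptide transporter, from 2.56 and 2.59 to 0.291 and 0.391 TPM (-2.61 ± 0.18, FDR = 9.23e-05). Abcc10 went from 4.32 and 4.22 to 0.654 and 1.10 TPM (-2.20 ± 0.24, FDR = 6.11e-04) and Abcd2 from 1.04 and 0.934 to 0.137 and 0.146 TPM (-2.17 ± 0.22, FDR = 4.57e-04). No treated library overlapped a control library for these 4 genes.

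At the other end, Abcc9, Abca2 and Abca9 had positive log2 differences of 0.43, 0.23 and 0.12 on the deposited scale, none of them called, and 1.58, 1.49 and 1.62 after quantile normalization, where all 3 were called higher. By subfamily, all 3 tested members of D, all 3 of F and the single member of E were lower on the deposited scale, as were 5 of 6 in C, 3 of 6 in B and 2 of 7 in A, against 64.0% of all genes. After quantile normalization the members of E and F stayed lower (Abce1 -1.41, Abcf1 -0.52, Abcf2 -0.60 and Abcf3 -0.60), as did Abcd2 and Abcd3 in D and Abcc10 alone in C, whereas Abcd4 was at 0.41 and not called. Of the partners, 7 of 11 were lower and 1, Apoe, higher (0.60, FDR = 1.43e-04), against 64.0% and 9.07% of all genes.

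Exon inclusion after PladB was tested for 161 member SE events in 21 genes, and 7 were called (4.35%, against 8.00% of all events). All 7 were lower after PladB. They represented 5 exons of Abca1, Abcd3 and Abca16, because 2 exons were listed with different flanking exons. Both Abcd3 and Abca1 were also among the members whose level fell the most.

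A 166-bp exon of Abca1 (chr4:53143930-53144095, minus strand) went from a PSI of 0.996 and 0.986 under DMSO to 0.761 and 0.773 under PladB (ΔPSI, PladB minus DMSO, -0.224 ± 0.008, FDR = 0.00146). With other flanking exons it went from 1.00 and 1.00 to 0.862 and 0.930 (-0.104 ± 0.034, FDR = 0.0460), and this call was lost with the replicate block, without the depth trend and without any of the 4 libraries (FDR from 0.0687 to 0.141). In ESC, the tissue group in which the former event was listed with reads, its PSI was 1.00 and 0.993.

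In Abcd3, 3 exons of 57, 105 and 92 bp were skipped more often after PladB, and each kept its call under all 7 alternatives. The 57-bp exon (chr3:121761415-121761471) went from 0.997 and 0.999 to 0.853 and 0.864 (-0.139 ± 0.006, FDR = 4.72e-04), and with other flanking exons from 0.993 and 1.00 to 0.793 and 0.695 (-0.252 ± 0.049, FDR = 0.00343). The 105-bp exon (chr3:121765001-121765105) went from 0.997 and 1.00 to 0.881 and 0.882 (-0.117 ± 0.002, FDR = 0.00307). The 92-bp exon (chr3:121775431-121775522) went from 1.00 and 1.00 to 0.898 and 0.861 (-0.120 ± 0.018, FDR = 7.66e-04). In the 7 tissues the same exons were included at 0.989 or above in every library where they were measured. Since 57 and 105 are divisible by 3 and 92 is not, the exons differ in their effect on the reading frame if they are coding, which was not tested.

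A 174-bp exon of Abca16 (chr7:120439169-120439342) went from 1.00 and 1.00 to 0.657 and 0.818 (-0.262 ± 0.081, FDR = 0.0362). The values under PladB rested on 29 and 40 reads, and reads may be shared with the similar neighbouring genes Abca14 and Abca15. The call was lost with the replicate block (FDR = 0.0738), without the depth trend (FDR = 0.0711) and without any of the 4 libraries (FDR from 0.0670 to 0.107).

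**Figure D5:**
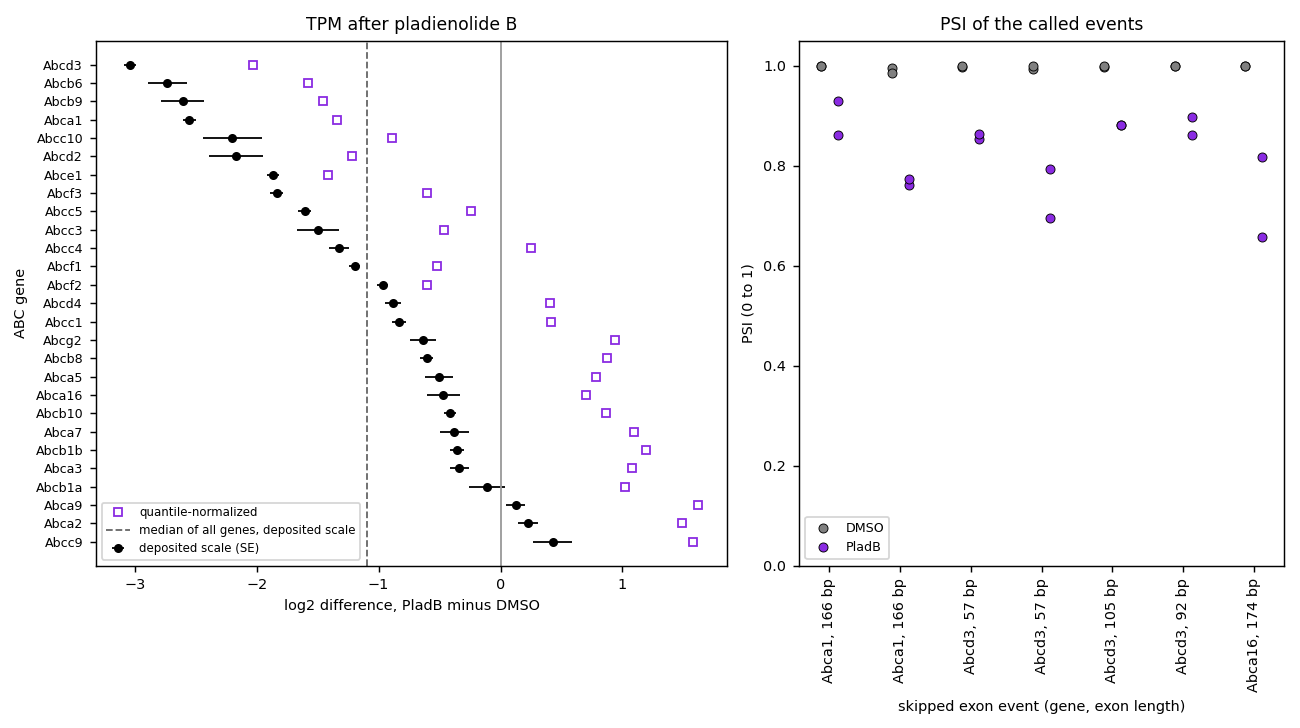
Left, log2 difference in TPM (PladB minus DMSO) of the 27 ABC genes tested, on the deposited scale (black, with SE) and after quantile normalization (open squares), with the median of all genes as a dashed line at -1.10. Right, PSI (0 to 1) of the 7 events called after PladB, with points for the 2 DMSO (grey) and 2 PladB (purple) libraries. Every square lies to the right of its black point, and every PladB point of the called events lies below the DMSO points.

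Of 6 retained introns of members tested, none was called, against 38.3% of all 1802 tested. By the quasi-binomial F test 2 passed the FDR but not the size limit. PSI of the Abcc1 intron was 0.00376 and 0 under DMSO and 0.0433 and 0.0553 under PladB (difference 0.0474, FDR = 7.15e-05), and that of the Abcf1 intron was 0.0202 and 0.0183 and then 0.0598 and 0.0628 (0.0420, FDR = 7.71e-04). In both the treated libraries were above the controls.

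Between the alleles, none of 73 member events was called under DMSO (6 with an unadjusted p under 0.05 by the quasi-binomial F test, 2.19% of all events called), and 1 of 87 under PladB (1.39% of all events called). This was the 166-bp exon of Abca1 that was skipped after PladB. Under PladB the C57BL/6J allele had a PSI of 0.914 and 0.884 and the SPRET/EiJ allele 0.457 and 0.532, from 51 to 228 reads. The allelic difference was 0.405 ± 0.040 (FDR = 0.0280), 0.0680 with the library as a block and 0.0518 without the depth trend. Under DMSO the alleles were at 0.994 and 0.993 and at 1.00 and 0.973. The difference of the allelic differences, 0.397, was not significant in the test of the interaction on the logit scale (p = 0.342, FDR = 0.943 in the quasi-binomial model). Over 35 member events none was called for this interaction, 2 had an unadjusted p under 0.05 by the quasi-binomial F test, and 0.00749% of all 13352 events were called.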

How the data were processed

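With HISAT2 version 2.0.1 and soft clipping turned off, the authors mapped all reads once against mm10 (GRCm38, the C57BL/6J reference) and once against a SPRET/EiJ genome. A read was given to the strain with fewer differences from it, or to neither where these were equal, SPRET/EiJ positions were carried over to C57BL/6J coordinates, and splicing events were counted with rMATS. The authors deposited TPM per gene, from strand-specific fragment counts shared fractionally between overlapping genes, and, per event, paired junction read counts of the including and skipping form for all reads and for each allele. TPM keep no depth. The deposited tables also hold p-values, FDRs and PSI differences of the authors' comparisons, which were not used.

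From the TPM, log2(TPM + 0.1) of genes with a mean of at least 0.5 TPM was fitted in limma 3.58.1 (R 4.3.3) with a trended prior over all genes, with an F test over 7 tissues, each tissue against the other 6, and PladB against DMSO. PSI was computed from length-corrected junction reads of events with at least 20 reads per library. For the comparisons of alleles within a tissue or treatment, events were left out where PSI of all reads and of the pooled alleles differed by more than 0.1. This filter was not applied among tissues or between PladB and DMSO. PSI was tested by a quasi-binomial logistic F test with dispersions shrunk by limma along a depth trend (Python 3.11.15, numpy 2.4.6, pandas 2.3.3, scipy 1.17.1). Only events with 50 reads of the rarer form entered the prior. This limit was set after seeing counts of cortical allele calls, which were 532, 475 and 512 for limits of 5, 20 and 50, and 0, 18 and 309 with the library as a block. FDRs are Benjamini-Hochberg values over all features tested. Both fits were tested on simulated data. For PSI, 200 events with a pooled share of including reads of 0.1 to 0.9 were changed by 1.5 on the logit scale. Of these, 41.5% were recovered among tissues, 32.5% between alleles in heart, 19% in liver, 4.5% in ESC and 61% after PladB. These rates do not describe events near full inclusion, such as the 87.1% of member events above 0.9 in every tissue tested. For TPM, 90.3% of 186 changed genes were recovered in heart and 92% of 199 after PladB, with 4.55% and 7.58% of calls false.

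Genes named per tissue were the 4 with the largest higher and the 2 with the largest lower calls, after PladB the 6 largest, and all called events. Members, lists and this rule were chosen with earlier results of these data known. Both alleles of a library share its RNA and are paired by design (correlation of their replicate differences 0.0404 to 0.401). Alternatives were another pseudocount, quantile normalization, 50 reads as the minimum, no consistency filter, no depth trend, each replicate left out, and a block. Gene positions came from RefSeq (GRCm38.p6), in which all 48 members were found by symbol. Some genes and marker sums are not reported here.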

Additional observations from a re-analysis of the deposited data

Results flagged for a closer look

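The 73-bp exon of Abca3 had allelic differences of opposite sign in the fibroblasts. Under DMSO the PSI of C57BL/6J was 0.809 and 0.744 and that of SPRET/EiJ 0.695 and 0.633, a difference of 0.113. Under PladB they were 0.718 and 0.605 against 0.728 and 0.831, a difference of -0.118. C57BL/6J was higher in both DMSO libraries and lower in both PladB libraries, and the allelic differences were 0.231 apart. The interaction in the quasi-binomial model had an unadjusted p of 0.00967 and an FDR of 0.914 over all events, so that the change of sign did not pass the correction. From all reads PSI was 0.757 and 0.696 under DMSO and 0.724 and 0.720 under PladB, and the exon was not called after treatment.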

How the results depend on the processing

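After quantile normalization 10 members were lower and 12 higher after PladB, against 18 and 0, and 12 members changed the sign of their log2 difference. These reached 0.25 (Abcc4), 0.41 (Abcd4), 0.41 (Abcc1), 0.94 (Abcg2), 0.87 (Abcb8), 0.78 (Abca5), 0.70 (Abca16), 0.87 (Abcb10), 1.10 (Abca7), 1.19 (Abcb1b), 1.08 (Abca3) and 1.02 (Abcb1a). No other named gene or exon changed its direction under the alternatives run. The 8 events called among tissues became 5 without cortex replicate 1 (5 to 10 over the libraries left out, the latter without ESC replicate 1). Between alleles 3 events were called in some tissue, and 28 and 35 had a difference of at least 0.1 in replicate 1 or replicate 2 taken alone, with no test. In fibroblasts the single event became 0 without the depth trend and 0 when libraries entered as a replicate block, and 10 events had such a difference in either replicate alone. Where a library was left out, the lone library of its group was assumed to vary like the others. Leaving out a library gave 43 to 44 genes among tissues, 17 to 20 lower after PladB, and 5 to 7 exon events after PladB.

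Organs came from 2 animals, but no source used here says whether a replicate number marks the same animal in each organ. Replicate differences in log2 TPM correlated at 0.0331 to 0.18 between organs, at -0.0401 to 0.0382 between organs and ESC, and at -0.0202 between treatments, so that not every pair was above 0.1. In PSI the organs ranged from -0.0226 to 0.0551. With the replicate number as a block the counts were 44 genes and 7 events among tissues (the Abcd4 exon was not called), and 18 genes, 5 exon events and 0 retained introns after PladB. The planned count model of including and skipping reads was not run. ESC clones varied the most, and 4.5% of simulated allelic changes were recovered there, so that an absence of calls in ESC says little.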

Other observations

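The share of allelic junction reads from C57BL/6J, at the deepest event of a member with at least 100 reads per library, gives a description of allelic level that no comparison above used. The 5th and 95th percentiles of all genes lay closest together in cortex, at 38.9% and 62.4%, and farthest apart under PladB, at 24.98% and 76.8%. Of 191 values of a member in a group, each the mean of 2 libraries, 21 (11%) lay outside these percentiles. By definition 5% of all genes lie beyond each of the 2 limits, so that this count is near the share of all genes. The median of the members ranged from 44.8% in lung to 57.2% in ESC. The genes below were chosen after their values were seen. Abcg2 reads came from C57BL/6J for 93.3% and 94.4% under DMSO and 95.4% and 92.8% under PladB, against 60.5% and 60.8% in kidney and 34.7% and 35.7% in liver. For Abcb1a the share was 93.6% and 94.9% in ESC and 27.2% and 20.4% in liver, and for its neighbour Abcb1b 16.4% and 13.5% in cortex, 74.7% and 67.6% in kidney and 50.3% and 90.8% in the ESC clones. Abca8b had 16.9% and 15.3% in spleen and 69.4% and 74.3% in liver. Abca4 had 89.0% and 89.2% in heart. Abcc4, uneven in TPM between the ESC clones, had 27.7% of 1671 reads in clone 1 and 95.65% of 483 reads in clone 2. Its mean of 61.7% lay within the percentiles of ESC. Mapping differences between the strains and reads shared by Abcb1a and Abcb1b were not tested, and the fibroblasts are a single line.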
